A study of Mus musculus with 768 samples.

Results

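Neurofilament light (Nefl), neurofilament medium (Nefm), neurofilament heavy (Nefh) and alpha-internexin (Ina) are the 4 genes described here, out of 27723 in the expression table. They were taken by name, and all 4 have a row there, written NEFL, NEFM, NEFH and INA. Their level, the share of cells in which they were above 0, and their occurrence in the same cells were followed in mouse embryonic stem cells during direct programming towards motor neurons.

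Neurofilaments are the intermediate filaments of neurons, and they fill the axon and set its calibre. The light chain forms the core of the filament, the medium and heavy chains carry long phosphorylated tails, and internexin is a further subunit that is made early in neuronal development in the mouse. Heavy chain is known as a late gene of maturing, large axons, and motor neurons are among the cells with the most neurofilament.

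The series holds 768 cells, 96 at each of 8 time points, from a line labelled Ainv15(iNgn2.Isl1.Lhx3.V5), which carries Neurog2 (Ngn2), Isl1 and Lhx3 in a cassette that doxycycline turns on. Cells were grown as embryoid bodies, spheres of stem cells in suspension, that were set up 2 days before 3 µg/ml doxycycline was given. They were taken at 0, 6, 12, 18, 24, 30, 36 and 48 h, and the 0 h cells carry the cassette but had no doxycycline. Viable cells were sorted one per well on fluorescein diacetate and profiled with SMART-Seq2, a method that reads whole transcripts, without molecular tags. The labels name no separate cultures, which leaves 1 sample per time point: differences between time points have no replicate check, and no test between them was made.

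The values are TPM, transcript abundances that are scaled for transcript length, so levels of different genes can be set side by side. The cells used are the 368 in which 2000 genes or more were above 0, between 14 of them at 48 h and 57 at 30 h. The median number of genes per kept cell lay between 6481 and 7484 at 6, 18, 24 and 30 h, against 5304, 4268.5, 2894 and 2141 at 0, 12, 36 and 48 h. The same split appears in Sod1, which averaged between 518 and 807 TPM at 6, 18, 24 and 30 h (the Sod1-low time points) and between 19553 and 65262 TPM at 0, 12, 36 and 48 h (the Sod1-high time points). Libraries were made in 2 batches, per the labels, and the cells of each are not given, so comparisons were kept within these 2 sets of time points. In a comparison of 2 time points a gene passed the filter on low values when, in the time point with the higher mean, that mean was at least 10 TPM and at least 25% of the cells were above 0. Of the 5 pluripotency markers, 4 were at least 2-fold lower at 30 h than at 6 h, against 6.03% of all passing genes. Of 5 motor neuron markers, 2 passed at 30 h against 6 h and 1 was at least 2-fold higher, against 13.9% of all passing genes. Both averaged under 10 TPM at 6 h and passed through 30 h alone, so their being higher is partly given by the filter. The vesicular acetylcholine transporter Slc18a3 was above 0 in 42.1% of 30 h cells and choline acetyltransferase (Chat) in 19.3%. Per cell, the summed level of the pluripotency markers ran from 0 to 4715 TPM at 30 h, against 203 to 15640 TPM at 6 h, and that of the motor neuron markers from 0 to 134 TPM at 30 h, against 0 to 108 TPM at 6 h. The 5 sensory neuron markers had a summed mean of 6.43 TPM at 30 h, against 5.29 TPM at 6 h, and the 5 glial markers 0.168 TPM at 30 h, against 0.345 TPM at 6 h. Other lists were higher at 30 h. The summed mean of the 5 neural progenitor markers was 224 TPM at 30 h, against 70.8 TPM at 6 h. That of the 4 mesoderm markers was 52.2 TPM, against 1.43 TPM, and that of the 5 motor neuron markers 26.7 TPM, against 12.0 TPM. The part of these markers in the values below was not tested.

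Nefl and Nefm are neighbours on mouse chromosome 14 and are read towards each other. In RefSeq (GRCm38.p6, the assembly also called mm10) Nefl lies at chr14:68083863-68089095 on the plus strand in 4 exons, and Nefm at chr14:68119545-68125004 on the minus strand in 3 exons, with 30449 bases between them. Nefh lies at chr11:4938754-4948064 on the minus strand in 4 exons, and Ina at chr19:47014681-47025327 on the plus strand in 3 exons. The coding sequence has 1629 bases in Nefl, 2544 in Nefm, 3270 in Nefh and 1503 in Ina, the extra length of Nefm and Nefh being in the tail.

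The longest run shared by any pair of the 4 transcripts was 23 bases, between Nefm and Nefh. No run of 50 bases, the read length, was shared by any pair in its own sense. On opposite strands there is overlap. In GENCODE M21 a second Nefm transcript ends in an exon that covers the first 1108 bases of Nefl on the other strand (32.8% of the Nefl transcript), and Nt5c2, a cytosolic nucleotidase gene, covers 456 bases of the first exon of Ina (14.1% of the Ina transcript). The sources used here do not give the annotation or strand setting behind the table, and without strand these reads cannot be told apart.

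Light chain RNA was far higher at 24 and 30 h than at 6 h, while the share of cells holding it lay between 28.6% and 38.2% from 6 to 30 h. Nefl was above 0 in 18 of 53 cells at 6 h (34.0%, exact 95% interval 21.5 to 48.3%), 16 of 56 at 18 h (28.6%), 21 of 55 at 24 h (38.2%) and 21 of 57 at 30 h (36.8%, 24.4 to 50.7%). The median of the cells above 0 was 8.99, 14.4, 50.3 and 72.8 TPM at 6, 18, 24 and 30 h. The lowest cell and the median over all kept cells were 0 at each of these times, and the highest cell reached 90.9, 122, 1210 and 1282 TPM at 6, 18, 24 and 30 h. The kept cells therefore overlap at 0 and in the low range. Among them, what sets 24 and 30 h apart is an upper end that 6 and 18 h lack. At 100 TPM or more there were 8 kept cells at 30 h and 6 at 24 h, against 0 at 6 h and 1 at 18 h. Of the cells under 2000 genes, 1 of 43 at 6 h had 1167 TPM Nefl. At 18 h 2 of 40 such cells held Nefl, at up to 221 TPM. Nefl averaged 72.2 ± 214 TPM at 30 h and 8.02 ± 20.6 TPM at 6 h (SD between cells, n = 57 and 53 cells), a log2 fold change of 3.02 on the scale of log2(mean + 1). At 24 h against 6 h it was 2.94, and at 18 h against 6 h it was -0.33. Few cells carry the mean: at 30 h 1 cell held 31.1% and 3 cells 62.9% of all Nefl.

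**Figure D1:**
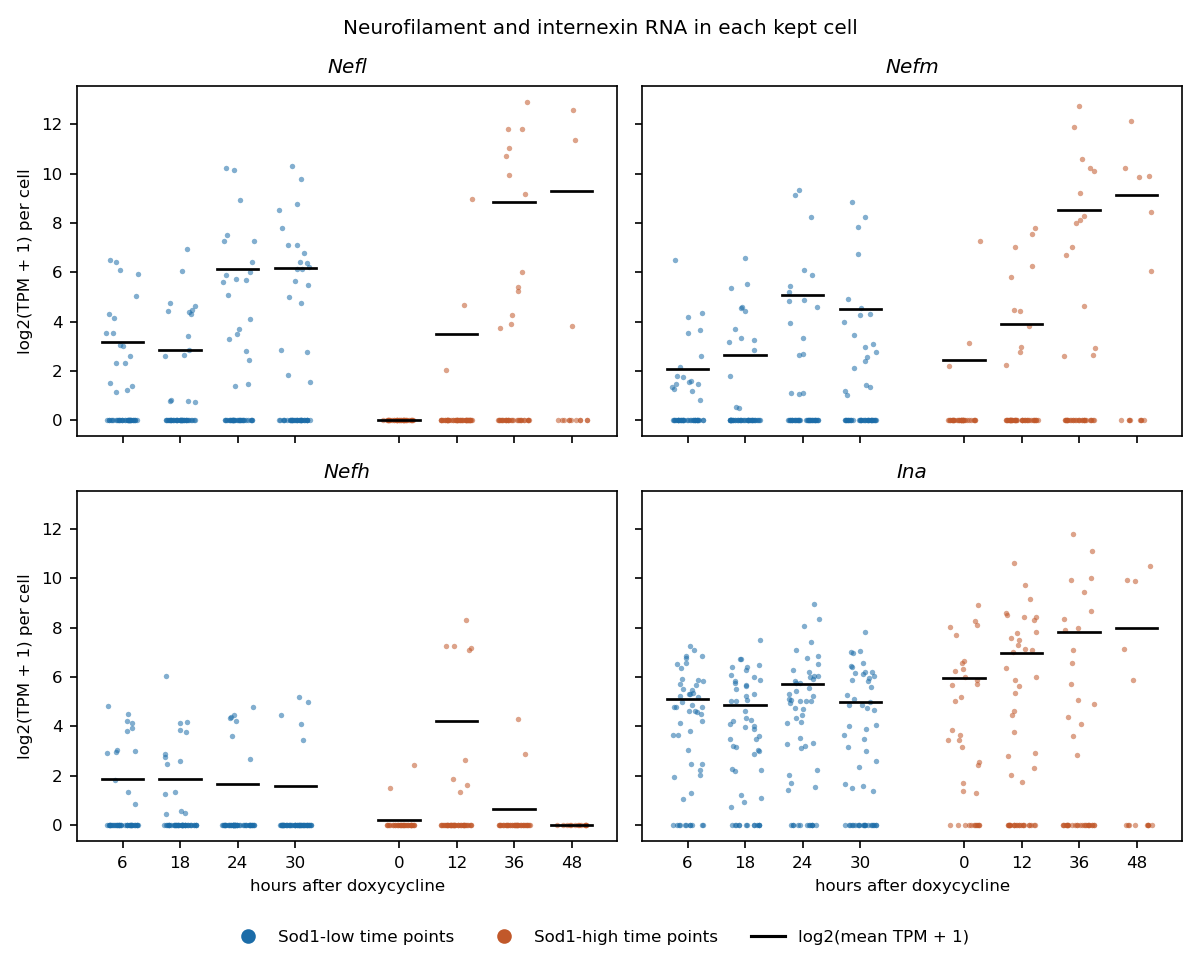
Each point is 1 kept cell, with log2(TPM + 1) of Nefl, Nefm, Nefh and Ina on the vertical axes and hours after doxycycline on the horizontal axes (Sod1-low time points on the left, Sod1-high on the right); black lines are log2 of the mean TPM + 1. Most cells lie at 0 for Nefl, Nefm and Nefh at every time point, and cells above 1000 TPM of Nefl appear at 24 h (2 cells), 30 h (1 cell), 36 h (5 cells) and 48 h (2 cells).

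Within the Sod1-low time points medium chain RNA was also higher by 24 h, at a lower level. Its mean peaked then, while that of light chain peaked at 30 h. Nefm was above 0 in 17 of 53 cells at 6 h (32.1%), 14 of 56 at 18 h (25.0%), 17 of 55 at 24 h (30.9%) and 20 of 57 at 30 h (35.1%). Its highest cell had 89.2, 94.7, 639 and 462 TPM at 6, 18, 24 and 30 h, with a lowest cell and a median of 0 throughout. As with Nefl, the groups overlap except at the upper end. Among cells holding Nefm the median was 2.43 (6 h), 10.5 (18 h), 27.7 (24 h) and 8.80 TPM (30 h). It thus fell back after 24 h, whereas that of Nefl kept rising. The Nefm mean also rests on few cells: 3 of them held 82.5% of its total at 24 h and 79.3% at 30 h. Nefm averaged 21.9 ± 78.2 TPM at 30 h and 3.29 ± 12.7 TPM at 6 h (SD between cells), and its log2 fold change was 2.42. At 24 h, with 33.4 ± 120 TPM, it was 3.00. The 30 h value is the less steady: it was 1.22 in odd-numbered and 3.47 in even-numbered cells, and -0.06 when the cells under 2000 genes were added, where 3 of the 43 such 6 h cells hold Nefm at up to 610 TPM.

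Internexin was the one member already present in most cells before doxycycline and early after it. In the Sod1-low time points Ina was above 0 in 42 of 53 cells at 6 h (79.2%), 43 of 56 at 18 h (76.8%), 43 of 55 at 24 h (78.2%) and 36 of 57 at 30 h (63.2%, 49.3 to 75.6%). Its lowest cell was 0 at each time, its median cell had 23.4, 12.6, 26.1 and 7.87 TPM at 6, 18, 24 and 30 h, and its highest 153, 182, 499 and 223 TPM. These ranges overlap over most of their length. Ina averaged 30.7 ± 44.9 TPM at 30 h and 33.5 ± 38.6 TPM at 6 h, a log2 fold change of -0.12. Against the same 6 h cells it was 0.60 at 24 h and -0.25 at 18 h. Odd-numbered and even-numbered cells gave 0.58 and -0.82 for 30 h against 6 h, so the sign is not fixed by these cells.

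Ina is the member with an entry in the promoter table, and the 250 bases before its start (RefSeq, GRCm38.p6, chr19:47014431-47014680, plus strand) are shown because basic helix-loop-helix factors such as Neurog2 bind E-boxes. Capitals mark the match to CANNTG, searched on both strands, which begins 135 bases before the start.
Ina promoter: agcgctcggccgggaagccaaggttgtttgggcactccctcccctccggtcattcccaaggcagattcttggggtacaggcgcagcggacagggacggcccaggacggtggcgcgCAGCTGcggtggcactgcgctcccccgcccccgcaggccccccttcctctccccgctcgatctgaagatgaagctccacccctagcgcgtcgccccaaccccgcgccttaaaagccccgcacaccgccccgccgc

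CANNTG occurs in 66.0% of 27025 mouse promoters of this length, so its presence sets Ina apart from few. TAAT, the core that homeodomain factors such as Isl1 and Lhx3 bind, was searched on both strands too. It has no match in this window and is held by 55.3% of promoters. G and C make up 70.8% of the window, against a median of 52% over all promoters.

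Heavy chain stayed at a low level, in 25.0% of cells or fewer. Nefh was above 0 in 13 of 53 cells at 6 h (24.5%), 14 of 56 at 18 h (25.0%), 7 of 55 at 24 h (12.7%) and 5 of 57 at 30 h (8.77%, 2.91 to 19.3%), and its highest cell in these time points had 64.5 TPM, at 18 h. It averaged 1.99 ± 7.06 TPM at 30 h and 2.69 ± 6.15 TPM at 6 h, a log2 fold change of -0.30. Its mean stayed under 10 TPM, so it did not pass the filter at 18, 24 or 30 h against 6 h. The interval of its 6 h share was 13.8 to 38.3%. At 6 h it was above 0 in 11 of the 27 cells at or above the median number of genes and in 2 of the 26 below. The part of depth in its lower share at 30 h was not tested.

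**Figure D2:**
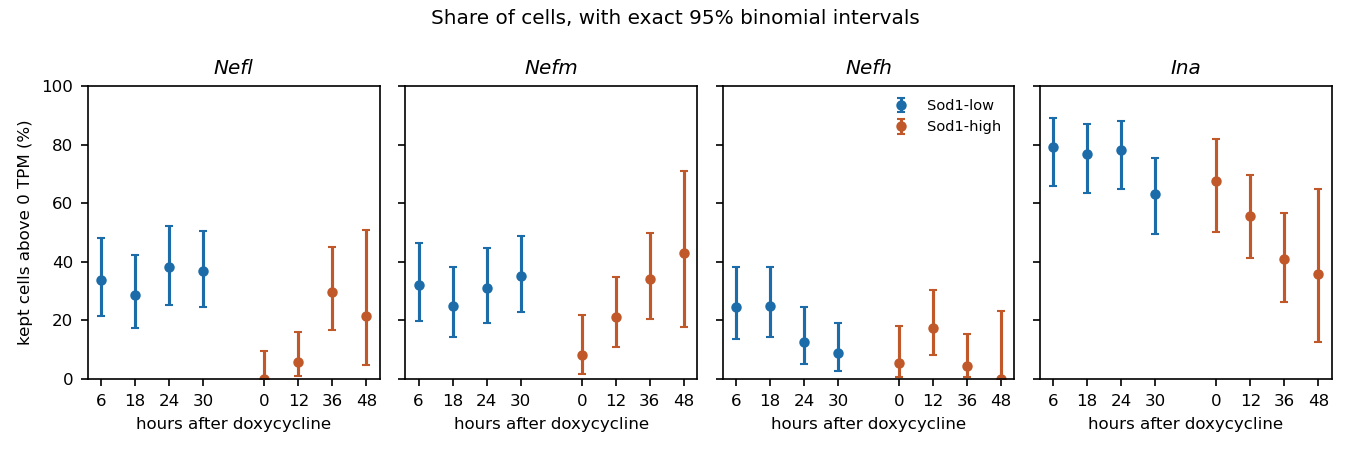
The share of kept cells above 0 TPM, in percent, is plotted for each gene against hours after doxycycline, Sod1-low time points in blue and Sod1-high in orange, with exact 95% binomial intervals. The Nefl and Nefm shares lie between 25.0% and 38.2% at 6, 18, 24 and 30 h with overlapping intervals, and the Ina share is the highest of the 4 at each time point except 48 h.

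Against all genes, these values read as follows. At 30 h against 6 h 3 members passed and 2 of them, Nefl and Nefm, were at least 2-fold higher, where 13.9% of all 6317 passing genes were; no passing member was at least 2-fold lower, where 6.03% of genes were. At 24 h against 6 h the same 2 of 3 passing members were 2-fold higher, against 13.5% of genes. At 18 h against 6 h Ina passed alone and was not 2-fold higher, against 11.8% of genes. Nefl and Nefm were under 10 TPM at 6 h and passed through the later time point alone, so their being higher there is partly given by the filter. Over all passing genes the median log2 fold change was 0.20 at 30 h and 0.24 at 24 h. The 3 comparisons share their 6 h cells.

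The Sod1-high time points gave larger numbers from shallower cells. At 0 h, each of the 37 cells listed Nefl at 0, a result that still permits a share of 8.11%. Cells above 0 numbered 3 of 52 at 12 h (5.77%, 1.21 to 15.9%), 13 of 44 at 36 h (29.5%, 16.8 to 45.2%) and 3 of 14 at 48 h (21.4%, 4.66 to 50.8%). The share was thus higher at 36 h than at 12 h, each being 1 sample, with no test of the difference. The highest cell had 506, 7676 and 6041 TPM at 12, 36 and 48 h, with a lowest cell and a median of 0 at every time. At 12 h 1 cell held 94.8% of the Nefl total, and without that cell the mean of 10.3 TPM was 0.545 TPM.

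Nefl averaged 461 ± 1391 TPM at 36 h and 10.3 ± 70.2 TPM at 12 h, a log2 fold change of 5.36, which was 7.57 without the highest cell of each time point and 7.65 among cells with 2000 to 4000 genes. Nefm averaged 370 ± 1196 TPM at 36 h and 14.2 ± 44.3 TPM at 12 h, a log2 fold change of 4.61. Its share was 8.11% at 0 h (3 of 37 cells), 21.2% at 12 h (11 of 52), 34.1% at 36 h (15 of 44) and 42.9% at 48 h (6 of 14), and its highest cell had 151, 223, 6875 and 4448 TPM. The counting interval of the Nefm share was 20.5 to 49.9% at 36 h and 11.1 to 34.7% at 12 h. At 36 h against 0 h, the log2 fold change was 6.10 for Nefm and 1.89 for Ina, and at 48 h against 0 h it was 6.71 for Nefm and 2.06 for Ina. Both comparisons share the 0 h cells, of which 1 held 92.9% of the Nefm total. Without the highest cell of each time point Nefm averaged 218 TPM at 36 h and 268 TPM at 48 h, against 0.322 TPM at 0 h. No fold is given for Nefl there, since it was listed at 0 at 0 h.

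Ina in these time points was found in a smaller share of cells at each later time, at a higher level in the cells that held it. It was above 0 in 25 of 37 cells at 0 h (67.6%), 29 of 52 at 12 h (55.8%), 18 of 44 at 36 h (40.9%) and 5 of 14 at 48 h (35.7%), while the median of the cells above 0 was 50.0, 135, 187 and 945 TPM at 0, 12, 36 and 48 h. Over all kept cells its median was 9.87, 5.00, 0 and 0 TPM at those times. Its highest cell had 482, 1569, 3520 and 1454 TPM at 0, 12, 36 and 48 h, and the ranges overlap. The lowest Ina value above 0 was 1.49, 2.33, 6.14 and 57.8 TPM at 0, 12, 36 and 48 h. The median number of genes per cell is also lower at each later of these time points. Its part in the lower share, and in the higher level of the cells above 0, was not tested. Ina averaged 125 ± 265 TPM at 12 h, against 60.7 ± 109 TPM at 0 h (log2 fold change 1.03). It averaged 228 ± 643 TPM at 36 h, a log2 fold change of 0.86 against 12 h. That last value was -1.09 in odd-numbered and 2.46 in even-numbered cells. Nt5c2, which overlaps Ina, was above 0 in 17 of these 147 cells and met Ina in 10, against 9.04 from the product of their shares at each time point. In the Sod1-low set it was above 0 in 120 of 221 cells and met Ina in 100, against 89.0. The part of this overlap in the Ina values was not tested.

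Nefh had its highest level of the series at 12 h. It averaged 17.6 ± 58.0 TPM at 12 h and 0.171 ± 0.789 TPM at 0 h, with 9 of 52 cells above 0 at 12 h (17.3%) and 2 of 37 at 0 h (5.41%). In 5 of the 9 cells it exceeded 100 TPM, up to 319 TPM. At 36 h it was above 0 in 2 of 44 cells, with 18.7 TPM in the higher, and at 48 h each of the 14 cells listed it at 0, which still permits a share of 21.4%. The 12 h mean is high through few cells, and with 17.3% of cells the gene missed the filter. With the cells under 2000 genes added, the log2 fold change at 12 h against 0 h was -1.61, as 1 of those 0 h cells has 2740 TPM.

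In these comparisons the counts over all genes were larger too. At 12 h against 0 h Ina was the member that passed and was 2-fold higher, against 17.0% of genes. Its log2 fold change of 1.03 was near that limit, and its share of cells and median were lower at 12 h. Without the highest cell of each time point Ina averaged 96.8 TPM at 12 h and 49.0 TPM at 0 h. At 36 h against 0 h Nefl, Nefm and Ina passed and all 3 were at least 2-fold higher, against 22.5% of genes, with Nefl listed at 0 at 0 h. At 48 h against 0 h Nefm and Ina passed and both were 2-fold higher, against 22.8% of genes. At 36 h against 12 h, a comparison chosen after seeing the data, 2 of 3 passing members were 2-fold higher, against 19.4% of genes, and none was 2-fold lower, against 24.8%. Over all passing genes the median there was -0.12. In these comparisons Nefl and Nefm were above 0 in under 25% of the 0 h and 12 h cells and passed through 36 or 48 h alone, so here too their being higher is partly given by the filter.

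In both sets of time points the make-up of the 4 genes together, taken on their means, moved from internexin to the light and medium chains. Ina made up 70.5%, 66.4%, 33.0% and 24.2% of their summed mean TPM at 6, 18, 24 and 30 h. In the other set it made up 93.0%, 74.8%, 21.5% and 17.7% at 0, 12, 36 and 48 h. The summed mean was 127 TPM at 30 h, against 47.5 TPM at 6 h, and 1059 TPM at 36 h, against 65.2 TPM at 0 h. The Ina mean itself was 33.5, 27.9, 51.1 and 30.7 TPM at 6, 18, 24 and 30 h and 60.7, 125, 228 and 256 TPM at 0, 12, 36 and 48 h. Nefl made up 56.9% of the sum at 30 h and 16.9% at 6 h, and Nefm 17.3% at 30 h and 6.93% at 6 h.

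**Figure D3:**
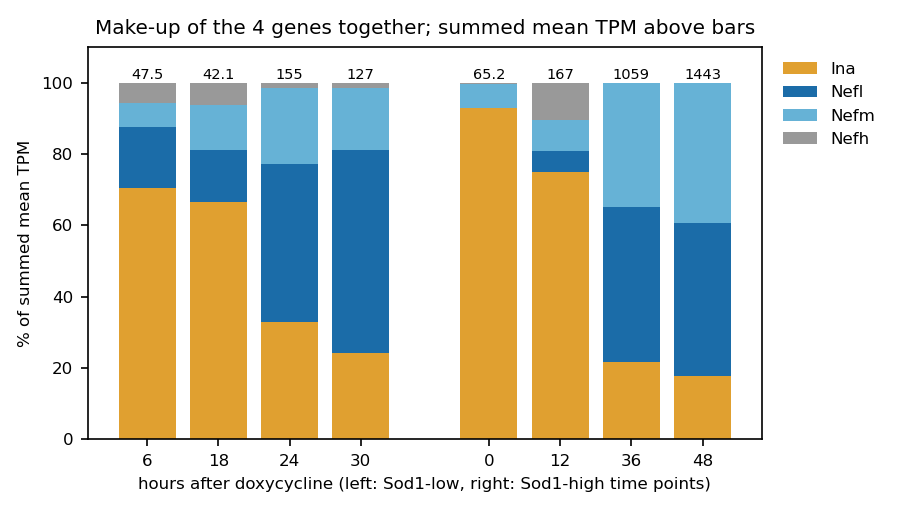
Stacked bars give the percentage of the summed mean TPM of the 4 genes that each contributes, by hours after doxycycline (Sod1-low time points left, Sod1-high right), with the summed mean TPM above each bar. Ina is the largest part at 0, 6, 12 and 18 h, and Nefl at 24, 30, 36 and 48 h; without 1 cell at 48 h Nefl averaged 204 TPM, below Nefm at 268 TPM.

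Light and medium chain RNA tended to be in the same cells. Over the Sod1-low time points 37 of 221 cells held both, against 23.6 from the product of the shares at each time point, and over the Sod1-high time points 13 of 147, against 6.35. Since cells differ in their number of genes above 0, each time point was also split at its median number of genes. In the Sod1-low set the count was 18 against 8.46 in the cells with fewer genes and 19 against 15.4 in those with more. In the Sod1-high set it was 7 against 4.49 and 6 against 2.27. At 36 h alone 9 of 44 cells held both, against 4.43, and at 30 h 9 of 57, against 7.37. The exon of Nefl that a Nefm transcript covers on the other strand bears on this pair, and its part in the count was not tested.

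The other pairs were nearer to the product of their shares in the Sod1-low set. Nefl and Ina met in 68 of 221 cells against 56.2, Nefm and Ina in 56 against 50.1, and Nefl and Nefh in 16 against 12.9. Nefh met Nefm in 14 cells against 11.6 and Ina in 33 against 29.7. In the Sod1-high set Nefl and Ina met in 16 of 147 cells against 8.06 and Nefm and Ina in 23 against 16.4. Nefl and Nefh met in 0 of 147 cells there, against 1.11, too few for a difference to be seen. Nefl, Nefm and Ina were all above 0 in 9, 7, 10 and 7 cells at 6, 18, 24 and 30 h, and in 0, 1, 8 and 3 cells at 0, 12, 36 and 48 h.

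**Figure D4:**
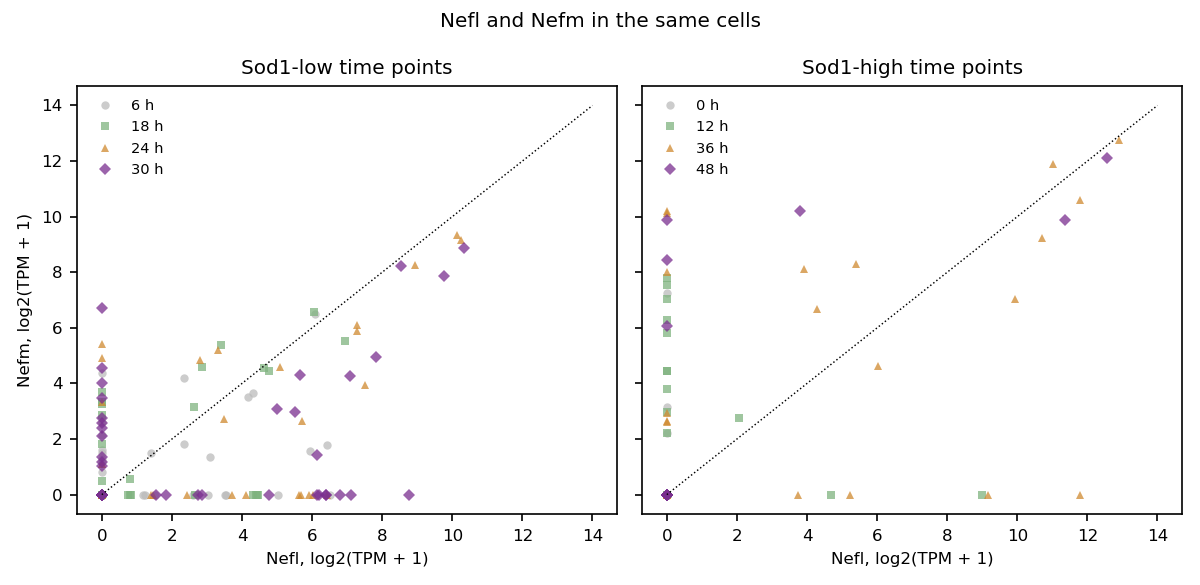
Each point is 1 kept cell, with Nefl on the horizontal and Nefm on the vertical axis, both as log2(TPM + 1), for the Sod1-low time points (left) and the Sod1-high time points (right); the dotted line marks equal levels. The highest Nefl cell at 24, 30, 36 and 48 h also holds Nefm, while the next at 36 h (3561 TPM Nefl) is at 0 for Nefm, and the 9 cells with both at 30 h lie below the line.

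From 24 h on, the 3 cells with the highest summed level of the 4 genes at each time point held Nefl, Nefm and Ina together. The 3 highest cells at 6 h did so too, at a summed level of 146 to 240 TPM, and at 18 h 1 of the 3 lacked Nefm. At 0 h the 3 highest cells held Ina alone, and at 12 h each of the 3 lacked Nefl or Nefm. At 30 h the highest cell had 1282 TPM Nefl, 462 TPM Nefm and 125 TPM Ina, and the next had 876, 230 and 127 TPM. At 36 h the highest cell had 7676 TPM Nefl, 6875 TPM Nefm and 239 TPM Ina, and at 48 h it had 6041, 4448 and 945 TPM, 56.6% of the summed RNA of the 4 genes in the 14 cells. Of these 12 cells at 24, 30, 36 and 48 h, 1 held Nefh (19.6 TPM, at 24 h). Pou5f1, the pluripotency factor also called Oct4, was at 0 in 8 of the 12 and at 17.4 to 110 TPM in the other 4, of which 2 were at 24 h, 1 at 30 h and 1 at 48 h. Stmn2, a growth cone protein of neurons, was above 0 in all 12, between 3.02 TPM at 30 h and 1034 TPM at 24 h. Over all kept cells Stmn2 was above 0 in 87.3%, 86.0%, 52.3% and 50.0% at 24, 30, 36 and 48 h. Pou5f1 was above 0 in 76.4%, 50.9%, 13.6% and 7.14% of all kept cells at those times. Isl1 and Lhx3 were above 0 in each of the 3 highest cells at 24 and 30 h. At 36 h the highest cell and the next were at 0 for both. The third had 11.6 TPM Isl1 and 207 TPM Lhx3. At 48 h the highest cell had 0 and 85.7 TPM, the next 1158 and 0 TPM, and the third 0 of both. Isl1 was above 0 in 45.5% of all kept cells at 36 h and 14.3% at 48 h, and Lhx3 in 34.1% and 21.4%. The order of the 2 chains also differs by time: Nefl exceeded Nefm in 9 of 9 cells with both at 30 h, with a median log2 ratio of 2.03, in 9 of 11 at 24 h (0.90), in 4 of 8 at 18 h (-0.23), in 6 of 9 at 6 h (0.69) and in 5 of 9 at 36 h (0.16).

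Neurofilament RNA was not restricted to cells without the pluripotency factor. Over the Sod1-low time points Nefl and Pou5f1 met in 58 of 221 cells, against 58.3 from the product of their shares, and Nefm and Pou5f1 in 48, against 52.0. At 36 h 0 of 15 cells with Nefm held Pou5f1, against 2.05 from the product. Nefl and the factor Isl1 met in 64 of 221 cells in the Sod1-low set, against 52.3, and Nefl and Elavl3, an RNA-binding protein of neurons, in 38, against 30.1. For Nefl and Isl1 the count was 24 against 15.1 in the cells with fewer genes and 40 against 39.9 in those with more. For Nefl and Elavl3 it was 10 against 7.58 and 28 against 25.1. In the Sod1-high set Nefl and Elavl3 met in 16 of 147 cells, against 10.1. Nefl and Stmn2 were nearer to the product in the Sod1-low set, with 60 cells against 57.7, and had 12 against 8.58 in the Sod1-high set. Nefl and Lhx3 met in 62 cells of the Sod1-low set, against 54.6. At 36 h Lhx3 met Nefl in 4 of 44 cells, against 4.43, Nefm in 3, against 5.11, and Ina in 4, against 6.14. At 0 h 12 of the 25 cells with Ina held Pou5f1, against 11.5.

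Related genes were then set beside the members, from lists chosen with earlier results known, at 30 h against 6 h. Of 10 neuronal markers 7 passed and 6 were at least 2-fold higher, with a median log2 fold change of 1.47, where 13.9% of all passing genes were 2-fold higher and their median was 0.20. Stmn2 averaged 124 TPM at 30 h and 9.57 TPM at 6 h (log2 fold change 3.56), and its share was 86.0% at 30 h and 45.3% at 6 h, so unlike Nefl it was found in more cells. The other large values were 2.68 for Elavl3, 1.91 for Dpysl3 and 1.47 for Gap43, both proteins of growing axons. Tubb3, neuronal beta-tubulin, had 0.56. Some of the 6, among them Stmn2 and Elavl3 (1.16 TPM at 6 h), were under 10 TPM at 6 h. They passed through 30 h alone, so their being higher is partly given by the filter.

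Of 12 other intermediate filament genes 3 passed and all 3 were 2-fold higher: the epithelial keratins Krt18 (2.23) and Krt8 (1.73), and vimentin (Vim, 1.36), a filament of mesenchymal and progenitor cells. Vim averaged 244 TPM at 30 h and 94.5 TPM at 6 h, with 84.2% of 30 h cells above 0. Nestin (Nes), the progenitor filament, averaged 3.63 TPM at 30 h against 3.69 TPM at 6 h, and peripherin (Prph), the filament of peripheral neurons, 3.84 TPM at 30 h against 3.35 TPM at 6 h. Gfap, the astrocyte filament, was listed at 0 in every kept cell of both times. At 30 h the mean of Krt8 was 687 TPM and that of Krt18 297 TPM, so both keratins and vimentin stood above Nefl, at 72.2 TPM.

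Genes that link, move, modify or degrade neurofilaments showed smaller values. Of 8 linkers and motors 5 passed and none was 2-fold higher or lower, with a median log2 fold change of 0.36. The cross-linker plectin (Plec) had -0.99, the spectraplakins Macf1 and Dst 0.71 and 0.68, and the kinesin heavy chain Kif5b 0.36. Of 12 kinases, phosphatases and turnover genes 7 passed and 1, the kinase Gsk3b, was 2-fold higher (1.24), with a median of 0.75. The phosphatase subunit Ppp2ca and the ubiquitin ligase Stub1 each had 0.90, and the kinase Mapk3 had 0.75. Of 8 factors 3 passed and 2 were 2-fold higher, Ebf2 (1.75) and Isl1 (1.64), while Lhx3 had 0.64. Ebf2 averaged 7.53 TPM at 6 h and passed the filter through 30 h alone. Isl1 and Lhx3 are also on the cassette, whose RNA may be counted with the genes of the cell, which cannot be told apart here.

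**Figure D5:**
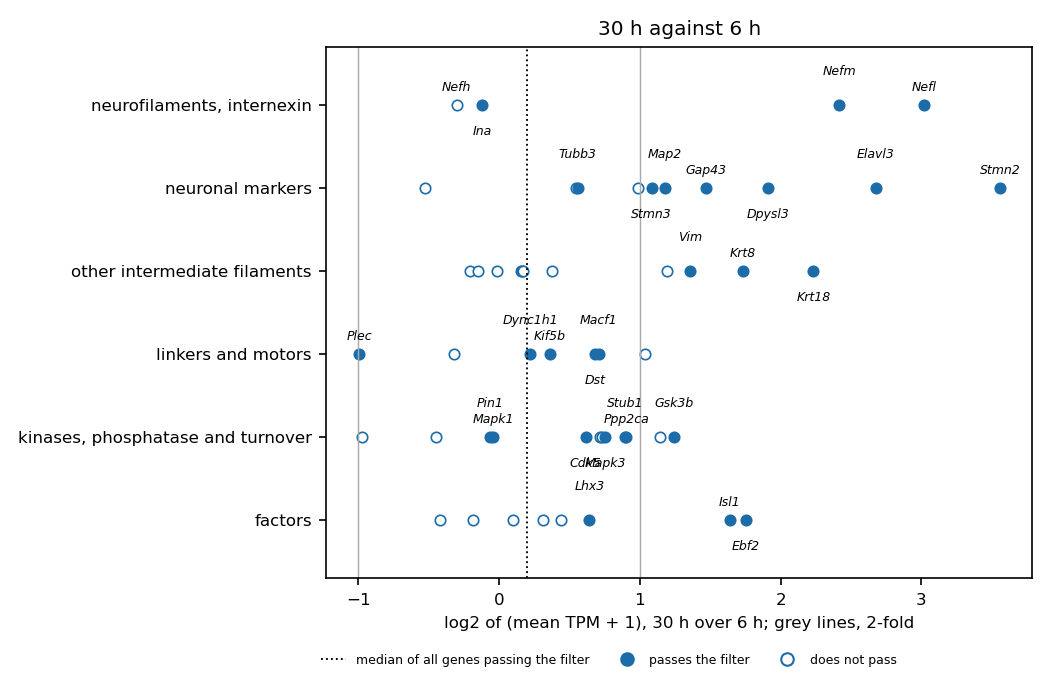
Log2 fold changes of (mean TPM + 1) at 30 h over 6 h are plotted for the 4 members and 5 lists of related genes; filled points passed the filter, open points did not, the dotted line is the median of all passing genes (0.20) and grey lines mark 2-fold. Nefl and Nefm lie near Stmn2 and Elavl3 at the high end, and Ina and Nefh lie left of the median.

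At 36 h against 12 h, 4 of 7 passing neuronal markers were 2-fold higher, with a median log2 fold change of 1.56. Over all passing genes 19.4% were 2-fold higher and 24.8% were 2-fold lower. Among those 4 markers were Dcx, a microtubule protein of migrating neurons (6.92), the RNA-binding protein Elavl4 (4.28) and Stmn2 (3.41). Dcx, Elavl4 and Stmn2 were above 0 in 9.62%, 13.5% and 9.62% of 12 h cells and passed through 36 h alone. Their being higher is thus partly given by the filter. Of the other intermediate filament genes 5 passed, with lamin B1 (Lmnb1, 1.12) 2-fold higher, and desmin (Des, -3.33) and lamin A (Lmna, -1.79) 2-fold lower. Nefl at 5.36 and Nefm at 4.61 were above each of these except Dcx. The turnover gene Trim2, a ubiquitin ligase that binds Nefl, had 2.30, with 80.9 TPM at 36 h and 15.7 TPM at 12 h.

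Genes whose levels varied most like a member were ranked by Spearman's rho over the 57 cells of 30 h, which share a time point and differ in depth, among 7983 genes above 0 in at least 25% of them. For Nefl they were Zdhhc12 (0.64), Slc1a2 (0.61), Mllt11 (0.53), Csnk1e (0.52) and Cst3 (0.51). Over the 55 cells of 24 h the same 5 genes had 0.20, 0.34, 0.34, 0.34 and 0.19. For Nefm they were Ap4m1 (0.58), Abhd2 (0.52), Meis2 (0.51), Tbc1d19 (0.51) and Ahsa2 (0.50), and at 24 h Abhd2 had 0.48 and Tbc1d19 -0.11. For Ina they were Tubb3 (0.53), Cct2 (0.52), Tmem161a (0.52), Jkamp (0.51) and Ncstn (0.51), and at 24 h Tubb3 had 0.51 and Jkamp 0.03. Tubb3 with Ina and Abhd2 with Nefm are thus the pairs that had like values at both times. Nefl with Nefm had 0.27 at 30 h and 0.49 at 24 h. At 30 h Nefm ranked 396 of the 7983 genes for Nefl. Nefl with Ina had 0.41 at 30 h, where Ina ranked 35 for Nefl, and 0.33 at 24 h. Nefm with Ina had 0.16 at 30 h, where Ina ranked 1391 for Nefm, and 0.45 at 24 h. The number of genes per cell had a rho of -0.05 with Nefl, 0.03 with Nefm and 0.17 with Ina at 30 h. Nefh, above 0 in 8.77% of those cells, was not ranked.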

How the data were processed

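The deposited values are TPM for 27723 genes in 768 cells, in 1 table made by the authors. Columns sum to 1000000 within rounding and hold no whole reads. Reads were single-end, 50 bp, averaging 325000 per cell, per the labels. Read depth cannot be had from TPM and is unknown, so the number of genes above 0 stands in for it. Tools named in the submitters' processing notes are bcl2fastq and Picard, with the mm10 build. Aligner and annotation: not given in the sources used here. Each TPM value is a share of its cell's total, and abundant genes thus press down the rest.

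From these values the mean over kept cells (at least 2000 genes above 0), the share of cells above 0 with exact Clopper-Pearson 95% intervals, and log2 ratios of (mean + 1) were computed. This scale understates the change of low genes, and intervals cover counting error alone. Where no cell was above 0, the limit printed is 3 cells divided by those kept. Nothing was tested, since each time point is 1 sample. The members and lists were chosen with earlier results of these data known. Named genes are the members, up to 4 passing genes per list by size of change at 30 h against 6 h, and the 5 genes of highest rho per member. Tubb3, Nes, Prph, Gfap, Slc18a3, Chat, Sod1, Nt5c2, Pou5f1 and the genes named at 36 h against 12 h were picked with their values in view. Of 85 list symbols 79 matched directly and 4 through a RefSeq synonym, and 2 (Myo5a, Hba-a1) were not matched. Folds and filter were tested on simulated data. Alternatives were other pseudocounts, rescaling, other cell and detection limits, odd-numbered or even-numbered cells, and no filter. Software was scipy 1.17.1, pandas 2.3.3, numpy 2.4.6 and matplotlib 3.10.9 under Python 3.11.15.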

Additional observations from a re-analysis of the deposited data

Results flagged for a closer look

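The 82 cells of 48 h that were left out for holding fewer than 2000 genes still had neurofilament RNA. Nefm was above 0 in 17.1% of them (14 cells, exact 95% interval 9.66 to 27.0%), against 0 of the 59 cells left out at 0 h, and Ina was also above 0 in 17.1% (14 cells), against 1 of 59 at 0 h. These cells enter no comparison above. Nefm reached 3451 TPM and Ina 2395 TPM in them, and Nefl was above 0 in 8 of the 82 cells (9.76%). They outnumber the 14 kept cells of 48 h, 6 of which held Nefm and 5 Ina.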

How the results depend on the processing

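No paired analysis was possible because each time point is 1 sample, the numbers in the labels count cells, and no test was made. The comparison of 36 h with 12 h was chosen after seeing the data. At 30 h against 6 h the log2 fold change reversed for Nefm with all cells (-0.057). Nefl gave 3.68 with all cells and 2.19 with a pseudocount of 10. The cells added at 30 h held Nefl in 2 of 39, at up to 15308 TPM. Those added at 6 h held it in 1 of 43, at 1167 TPM. Nefm gave 1.26 with a pseudocount of 10, 1.58 in cells with at least 1000 genes, and 1.22 and 3.47 in odd-numbered and even-numbered cells. Nefh gave -0.98 in even-numbered cells. Ina gave -1.44 in cells with 2000 to 4000 genes, and 0.58 and -0.82 in odd-numbered and even-numbered cells. Genes at least 2-fold higher numbered 312 with a pseudocount of 10, 1633 in cells with 2000 to 4000 genes and 2349 without the filter, and those lower 217, 1259 and 1063, and 965 with all cells. Shares at 30 h with all cells were 24.0% for Nefl, 20.8% for Nefm and 37.5% for Ina. At 10 TPM or more they were 17.5% for Nefm and 49.1% for Ina. Among the 1000 highest genes of a cell they were 8.77% for Nefl, 5.26% for Nefm, 0% for Nefh and 1.75% for Ina. In cells with 2000 to 4000 genes they were 25.0% for both Nefh and Ina. Cells with both Nefl and Nefm in the Sod1-low set, over the product of shares, had a ratio of 1.57, which was 2.49 at 10 TPM, 11.2 among the 1000 highest genes and 5.09 in cells with 2000 to 4000 genes. Nefh at 12 h against 0 h with all cells (-1.61), Nefm with Nefh in even-numbered Sod1-low cells (a ratio of 0.70) and Nefm with Tbc1d19 at 24 h (-0.11) also reversed. Apart from the cells under 2000 genes named above, the cause was not tested. Only 4 kept cells at 6 h and 4 at 30 h hold 2000 to 4000 genes.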
